A study of Mus musculus with 57 samples.

Results

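The loci of the Wnt ligand genes Wnt3 and Wnt3a were described from the peaks listed there in mouse epiblast stem cells (EpiSCs) and early embryos. Members were all peaks of the deposited ChIP-seq, input and ATAC-seq lists that overlapped chr11:103600000-103720000 around Wnt3 or chr11:59020000-59145000 around Wnt3a (mm9). There were 251 such peaks among the 591931 peaks of 32 lists, 110 at Wnt3 and 141 at Wnt3a. In mm9 Wnt3 runs from about 103.635 to 103.679 Mb on the plus strand and Wnt3a from about 59.062 to 59.104 Mb on the minus strand, so the start of Wnt3 is the lower coordinate and that of Wnt3a the higher one. No annotation of mm9 was used, and exons and introns are therefore not named.

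Wnt proteins are secreted, lipid-modified ligands that bind Frizzled receptors and LRP co-receptors. Binding stops the degradation of β-catenin, which then acts with TCF/LEF factors on target genes. Wnt3 is known for its requirement in formation of the primitive streak in the mouse embryo, and Wnt3a for its requirement in formation of the trunk and tail behind the forelimbs. H3K4me3 is a mark of promoters, H3K27ac one of active promoters and enhancers, H3K27me3 is the product of one Polycomb complex and Ring1b a subunit of the other, and peaks of ATAC-seq are stretches of accessible DNA.

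The 250 bases upstream of each start are shown because the results turn on marks at these starts, and because promoters rich in CpG dinucleotides commonly carry H3K4me3. Both are RefSeq sequences of GRCm38.p6 on the strand of the gene, with CpG dinucleotides in capitals, for Wnt3 chr11:103773925-103774174 (plus strand) and for Wnt3a chr11:59290752-59291001 (minus strand). These coordinates are of another build than the peaks and cannot be set beside them.
Wnt3: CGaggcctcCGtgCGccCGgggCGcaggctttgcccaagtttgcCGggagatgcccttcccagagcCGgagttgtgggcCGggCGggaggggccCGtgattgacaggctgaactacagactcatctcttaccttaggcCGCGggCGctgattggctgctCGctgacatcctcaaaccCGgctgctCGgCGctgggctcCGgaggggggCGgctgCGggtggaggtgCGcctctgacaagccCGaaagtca
Wnt3a: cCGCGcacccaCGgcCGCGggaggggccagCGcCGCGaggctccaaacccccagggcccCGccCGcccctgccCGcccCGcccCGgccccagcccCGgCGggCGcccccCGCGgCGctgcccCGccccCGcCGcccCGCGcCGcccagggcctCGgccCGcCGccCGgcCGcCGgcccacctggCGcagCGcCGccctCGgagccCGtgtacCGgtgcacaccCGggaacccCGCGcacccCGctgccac
The Wnt3 sequence holds 22 CpG dinucleotides and is 68% G or C, and the Wnt3a sequence holds 41 and is 87.6% G or C. Over all 32851 promoters of that table the medians were 6 CpG dinucleotides and 52.4% G or C, which put Wnt3 at the 86.7th and Wnt3a at the 99.1st percentile for CpG number. The TCF/LEF letters CTTTGAA or CTTTGAT were found on neither strand of either sequence, against 7.48% of the promoters of the table that hold at least 1 match; this says only that these letters are not in these windows.

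Groups were as follows. Wnt3KO EpiSCs, which lack Wnt3, were profiled for H3K4me3 and H3K27ac at 0 h and after 6, 12 and 72 h of CHIR99021 (3 µM), an inhibitor of GSK3 that activates the pathway inside the cell, with 1 library each. H3K27me3 in Wnt3KO EpiSCs was profiled at 0 h (2 libraries), after 5 h of Wnt3a protein (125 ng/mL) and at 6, 12 and 72 h of CHIR99021. Ring1b was profiled at 0 h (2 libraries), at 5 h of Wnt3a and at 72 h of CHIR99021. Wild-type EpiSCs were profiled for H3K27ac after 24 h of CHIR99021 (2 libraries) and at 0 h, and by ATAC-seq after 48 h of CHIR99021 and at 0 h. ATAC-seq was also done on wild-type embryos at E6.0 (2 libraries) and E7.2 (2 libraries) and on the posterior part of E7.5 embryos (1 library). All EpiSCs were derived from E6.0 explants in medium with IWP2 (2 µM), which blocks secretion of Wnt proteins, and IWP2 was withdrawn on stimulation. The 0 h libraries of H3K27ac and H3K4me3 in Wnt3KO cells are labelled as having no Wnt stimulation and the others at 0 h as IWP2. Neither the part of Wnt3 that was deleted nor the number of clones is stated in the labels. For 2 more libraries, of H3K4me3 in wild-type EpiSCs, title and stimulation label disagree; they were put in no group and are described list by list.

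The lists held 16287 to 17714 peaks for H3K4me3, 10161 to 29056 for H3K27ac, 1012 to 6236 for H3K27me3, 604 to 2244 for Ring1b and 33881 to 72433 for ATAC-seq. Without read counts in the files the depth is unknown, and a missing peak may be a peak missed at low depth. Both input lists (253 and 424 peaks), of Wnt3KO EpiSCs, had 0 peaks at either locus. By the paths in their peak names, the lists stem from 7 folders of processing, which were read as batches. Nothing says that replicates came from separate cultures or litters. No test was run: most groups have 1 library, and 2 against 2 libraries cannot give an exact permutation p below 0.333. Fold enrichment is the authors' value for each peak and describes or ranks peaks within a list; values of different lists are on different scales.

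Overlapping peaks of all antibody and ATAC-seq lists were joined into 29 elements, 15 at Wnt3 and 14 at Wnt3a. Of these, 8 at Wnt3 and 5 at Wnt3a were listed by ATAC-seq alone, and 4 at each locus were open in all 7 ATAC-seq lists. Only 1 element at each locus lay on the gene start. Within the gene away from its start there were 7 elements in Wnt3 and 1 in Wnt3a. Inside Wnt3, the elements 25.1, 37.4 and 41.9 kb from the start were each in 1 list only, at the 6.86th percentile by fold enrichment or lower. The element 35.8 kb inside Wnt3 and that 26.2 kb inside Wnt3a were each open in all 7 ATAC-seq lists. By number of elements the loci thus differed in layout, in part through such weak peaks, as well as in marks, as the maps show.

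**Figure D1:**
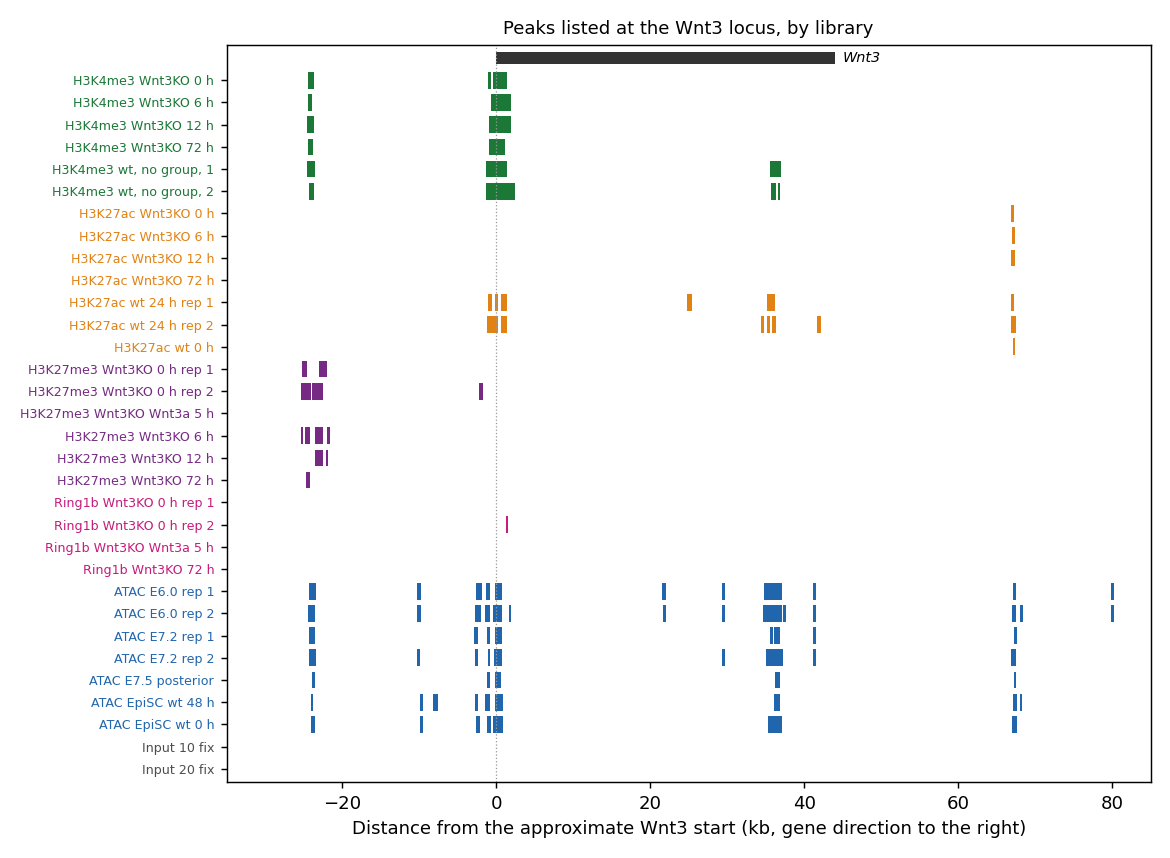
Peaks of all 32 lists at the Wnt3 locus against the distance from the approximate gene start in kb, 1 row per library, coloured by assay; bars under 0.35 kb are drawn at that width and the black bar is the gene. H3K4me3 and ATAC-seq sit on the start in all of their lists, H3K27ac sits there in both wild-type 24 h lists only, and none of the 18 Wnt3KO lists, 10 of them of H3K27me3 or Ring1b, has a peak inside the gene away from the start.

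**Figure D2:**
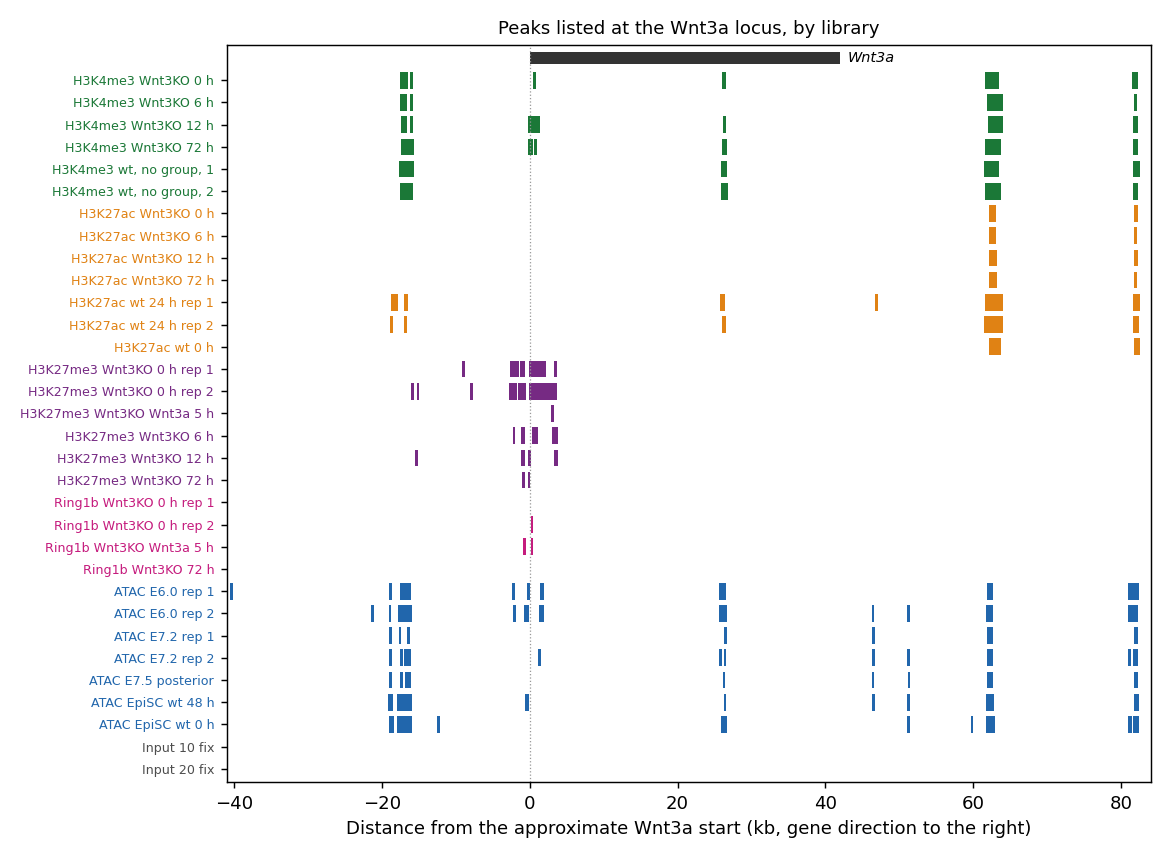
Peaks of all 32 lists at the Wnt3a locus, drawn as for Wnt3. H3K27me3 lies on the start element in all 6 of its lists, and the H3K27ac peaks present in all 7 lists lie downstream of the gene. After 5 h of Wnt3a the only H3K27me3 peak of that element lies inside the gene, at positions 59100728 to 59101109.

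At the Wnt3 start each ATAC-seq list, all of wild-type cells or embryos, had open chromatin and each H3K4me3 list a peak. No H3K27me3 peak lay on it. All H3K27me3 lists are of Wnt3KO cells, so this absence is not shown for wild-type cells. The start element (chr11:103633571-103637412) was listed by H3K4me3 in 6 of 6 lists and by ATAC-seq in 7 of 7. H3K4me3 peaks covered 2287 bp at 0 h, 2657 bp at 6 h, 2809 bp at 12 h and 2127 bp at 72 h in Wnt3KO cells, and 2767 and 3780 bp in the pair of wild-type lists of no group. The 0 and 72 h lists share a folder and the 6 and 12 h lists share another. Time and folder cannot be told apart between these pairs. All 4 lists of cells that lack Wnt3 thus had H3K4me3 on its start, with similar cover at both ends of the time course. The fold enrichment of its strongest H3K4me3 peak lay between the 35.8th and 58.5th percentiles of the lists. Its length ranked higher, at the 82.5th to 98.8th percentile of the 4 Wnt3KO lists. The summits of the strongest ATAC-seq peaks lay between positions 103635298 and 103635369, within 71 bp of each other across embryos and EpiSCs. The nearest H3K27me3 peak upstream was 463 bp long and was listed in the second 0 h library alone. Since the deleted part of Wnt3 is not known here, these peaks do not check the knockout label.

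The Wnt3a start element carried H3K27me3 in each list of that mark, all of Wnt3KO cells, H3K4me3 in some lists, and no H3K27ac. This element (chr11:59100144-59106856) joins peaks over 6713 bp, and cover given for the Wnt3a start is that of the whole element. It was listed by H3K27me3 in 6 of 6 lists, by H3K27ac in 0 of 7, by H3K4me3 in 3 of 6 and by ATAC-seq in 4 of 7. After 5 h of Wnt3a the only H3K27me3 peak of the element lay inside the gene, at positions 59100728 to 59101109. H3K4me3 covered 515 bp at 0 h, 0 bp at 6 h, 1641 bp at 12 h and 987 bp at 72 h in Wnt3KO cells, and 0 bp in both wild-type lists of no group. The strongest of these H3K4me3 peaks in each list ranked at the 7.87th to 29.5th percentile by fold enrichment, and a second peak at 72 h at the 2.81st. By length the 12 h peak ranked at the 84.8th percentile and the others between the 5.93rd and 17.9th. Both loci were in the same lists, so at each of these times the Wnt3 start had the longer H3K4me3 cover. The 6 and 12 h lists are of another folder than the 0 and 72 h lists, so time and folder cannot be told apart between them.

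H3K4me3 and H3K27me3 lay on the same bases of the Wnt3a start in Wnt3KO cells. The 0 h H3K4me3 peak of 515 bp was covered over 443 bp by H3K27me3 of the first 0 h library and over 515 bp by that of the second. Both marks covered 312 of the 1641 bp with H3K4me3 at 12 h, and 223 of the 987 bp at 72 h. In bp, H3K4me3 had the longer cover at 12 h (1641 against 1395 bp) and at 72 h (987 against 600 bp), and H3K27me3 at 0 h. The H3K4me3 lists covered far more in total. Per Mb of listed cover of each mark, the start took more H3K27me3 than H3K4me3 at both times. These values were 969 against 88.8 bp at 12 h and 398 against 44.5 bp at 72 h. Lengths of different antibodies are thus not on a common scale. At 6 h there was no H3K4me3 peak on the Wnt3a start. Whether the marks sit on the same chromosomes cannot be told from separate libraries.

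**Figure D3:**
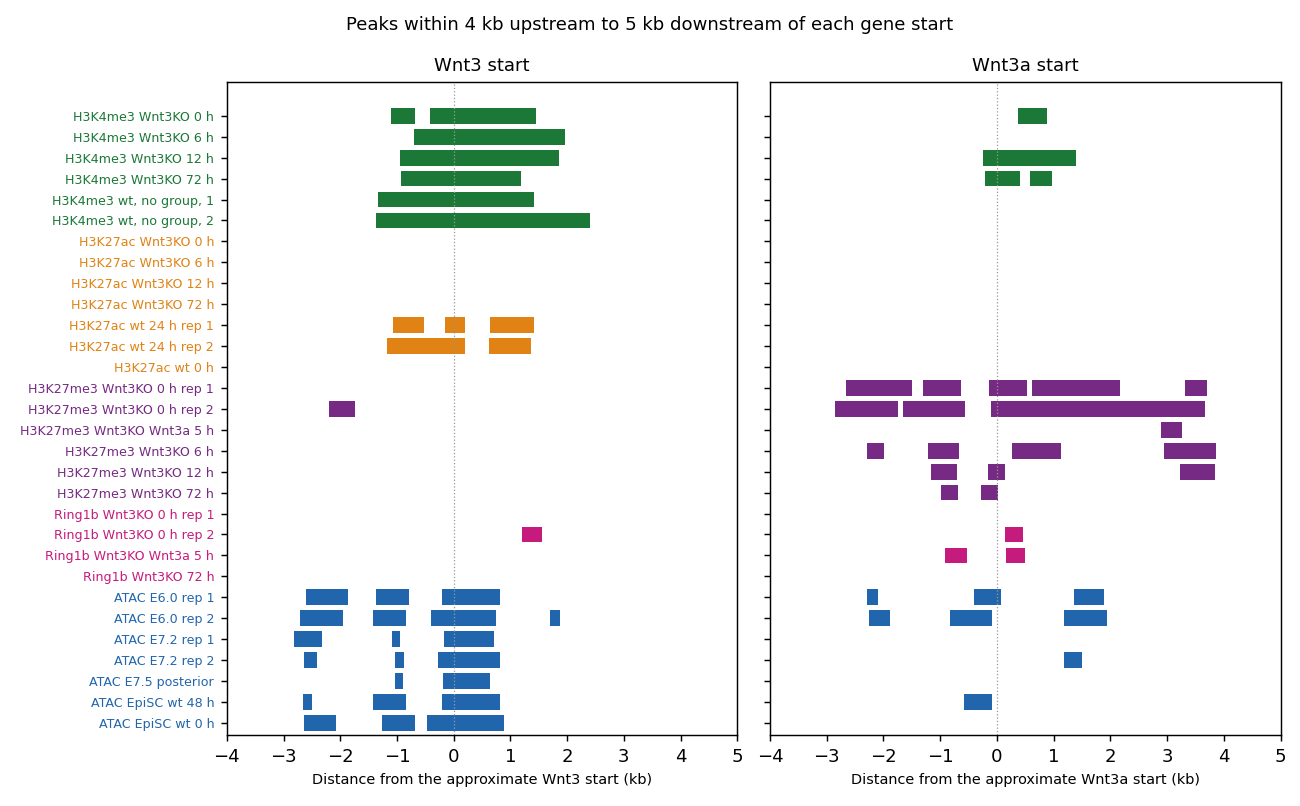
Peaks from 4 kb upstream to 5 kb downstream of each approximate gene start, 1 row per library, to scale. The Wnt3 start carries H3K4me3 and open chromatin in each list of these assays. The Wnt3a start element carries H3K27me3 in each list, most widely at 0 h. After 5 h of Wnt3a its only H3K27me3 peak lies inside the gene, at positions 59100728 to 59101109.

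H3K27me3 on the Wnt3a start element was widest at 0 h and narrower in each stimulated library. It covered 4441 and 5970 bp at 0 h, 382 bp after 5 h of Wnt3a, and 2629, 1395 and 600 bp after 6, 12 and 72 h of CHIR99021. The 382 bp after 5 h lay inside the gene, at positions 59100728 to 59101109, and not on the start itself. The group at 0 h averaged 5206 ± 1081 bp (SD, n = 2), and all 4 stimulated libraries lay below both 0 h libraries. All 4 stimulated lists were also shorter, with 1012 to 3150 peaks against 4332 and 6236 at 0 h, so the cover was also set against the total cover of each list, which ranged from 520 to 4678 kb. The start element took 1538 and 1276 bp per Mb of listed H3K27me3 at 0 h and 734 bp after 5 h of Wnt3a. It took 2122 bp after 6 h, 969 bp after 12 h and 398 bp after 72 h of CHIR99021. By this measure 6 h lay above both 0 h libraries, while 12 h, 72 h and 5 h of Wnt3a lay below them. The mean fold enrichment of these peaks was 4.66 and 5.82 at 0 h, 4.90 after 5 h of Wnt3a, and 5.68, 6.85 and 4.68 after 6, 12 and 72 h of CHIR99021, each on the scale of its own list.

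**Figure D4:**
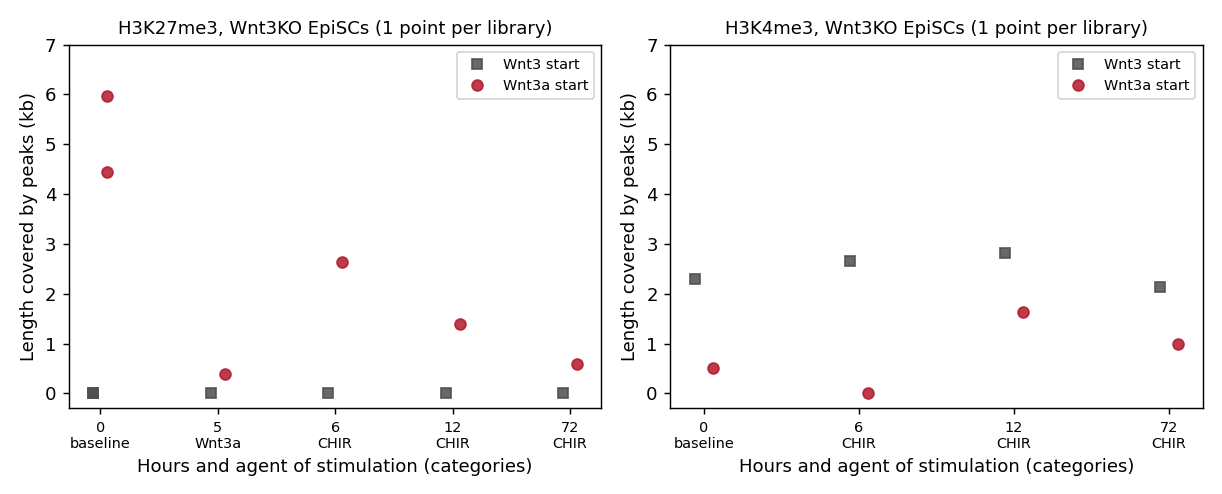
Length covered by H3K27me3 (left) and H3K4me3 (right) peaks at the start elements of Wnt3 and Wnt3a in Wnt3KO EpiSCs, in kb, 1 point per library, with hours and agent of stimulation as categories. H3K27me3 at the Wnt3a start lies at 4441 and 5970 bp at 0 h and at 600 bp at 72 h, and stays at 0 bp at the Wnt3 start.

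As whole peaks, H3K27me3 at the loci was lost at about the rate of the lists. After 72 h of CHIR99021 4 of the 7 peaks shared by the 0 h libraries had no overlap left, 3 of 5 at Wnt3a and 1 of 2 at Wnt3, where 58.5% of all such peaks were lost. None of the 3 peaks at 72 h was absent at 0 h, against 27.5% of the 72 h list. Within the folder that holds the 72 h list, 6 of the 9 peaks of the second 0 h library were lost, against 70.2% of that list. The 4 lost peaks were, by fold enrichment, 1557 bp of the Wnt3a start (chr11:59101832-59103388, 5.70-fold, 75.9th percentile), 1136 bp on the Wnt9b side of Wnt3 (chr11:103611936-103613071, 4.78-fold, 48.3rd percentile), 1155 bp on the upstream side of the Wnt3a start (chr11:59105499-59106653, 4.27-fold) and 387 bp on its gene side (chr11:59100304-59100690, 3.51-fold). With peaks within 1 kb merged, 2 of 4 were lost, against 49.4% of the list. The 2 peaks that were left at 72 h spanned 59103981 to 59104991, on the start itself.

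After 5 h of Wnt3a protein the loss was wider, and so was that of the list. All 7 shared 0 h peaks at the loci were absent, where 77.6% of all were lost. With lists of equal length these were 2 of 2, against 41.8% of the list, and with peaks within 1 kb merged 4 of 4, against 72.0%. At the loci 0 of 1 peak of the 5 h list was gained, against 5.53% of the list. The single peak left lay at chr11:59100728-59101109, inside Wnt3a about 3 kb from the start. The 5 h list held 1012 peaks, the fewest of the H3K27me3 lists. Within its own folder, 8 of the 8 peaks of the first 0 h library were absent, against 80.2% of that list.

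Ring1b had few and short peaks at both loci. It was listed at the Wnt3a start in the second 0 h library (309 bp, 38.9th percentile by fold) and after 5 h of Wnt3a (707 bp in 2 peaks), and in neither the first 0 h library nor the 72 h library. At the Wnt3 start it was listed in the second 0 h library alone (356 bp, 66.4th percentile). Since no Ring1b peak at the loci was shared by the 0 h libraries, 0 peaks could be lost at 72 h or at 5 h, where 72.9% and 9.24% of the shared peaks of the list were. With the second 0 h library alone, from the folder of the 72 h list, 2 of 2 peaks were lost at 72 h, against 78.3% of that list. Of the 2 peaks after 5 h of Wnt3a 1 was absent at 0 h (chr11:59104535-59104908, 4.62-fold, 16.0th percentile), against 34.1% of the list. With lists limited to the shortest of the assay, 0 of 4 had Ring1b at either start. The 72 h list had 0 peaks at the loci, and 22.2% of its peaks were gained.

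H3K27ac was listed on the Wnt3 gene in wild-type EpiSCs after 24 h of CHIR99021 and not at 0 h. On the start element it covered 1667 and 2108 bp in the 24 h libraries and 0 bp at 0 h. Over the start and the body of the gene it covered 3397 and 3974 bp at 24 h, a mean of 3686 ± 408 bp (SD, n = 2), against 0 bp at 0 h. The 24 h libraries both lay above the single 0 h library, but with each H3K27ac list limited to the 10161 strongest peaks, the length of the shortest list, 0 of 7 lists had a peak at the start or at the element 35.8 kb inside the gene. In Wnt3KO EpiSCs this cover was 0 bp at 0, 6, 12 and 72 h.

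Of the 5 peaks at Wnt3 shared by the 24 h libraries, 4 were absent at 0 h, and at Wnt3a 3 of 5 were. Together these were 7 of 10, where 59.1% of all shared 24 h peaks were gained. The strongest of them lay inside Wnt3 (chr11:103670147-103671271, 6.02-fold, 56.5th percentile of the first 24 h list). The next were on the Wnt3 start, at chr11:103633930-103634478 (5.09-fold) and chr11:103635648-103636416 (4.05-fold). At Wnt3a they lay inside the gene (chr11:59077566-59078267, 4.75-fold) and upstream of it (chr11:59120547-59121085, 4.72-fold, and chr11:59121790-59122842, 3.84-fold). None of the 3 peaks at 0 h was lost, against 14.5% of the 0 h list. The 24 h lists held 29056 and 27422 peaks against 14453 at 0 h and came from another folder, so stimulation, folder and list length cannot be told apart. With each list limited to its strongest peaks, as many as the shortest of the 3 lists holds, 1 of 3 peaks at 24 h was gained, against 35.5% of the list, and it lay at Wnt3; 1 of 3 at 0 h was lost, against 23.4%. With peaks within 1 kb merged, 4 of 7 were gained, against 54.5%.

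In Wnt3KO EpiSCs H3K27ac was listed at the same 3 elements at 0, 6 and 12 h and at 2 of them at 72 h. At Wnt3 a single element 67.3 kb from the start, downstream of the gene (chr11:103701839-103702716), carried it, over 389 bp at 0 h, 392 bp at 6 h, 585 bp at 12 h and 0 bp at 72 h. This made 1 of the 3 peaks at 0 h lost at 72 h, against 30.4% of the list, from a peak of 4.48-fold at the 2.99th percentile. Its rank was the 62.8th percentile at 6 h and the 77.7th at 12 h, in lists of another folder. At Wnt3a 2 downstream elements carried H3K27ac at each time, and none of the 2 peaks at 72 h was gained, against 17.4% of the list. The peak at 0 h did not reach a −log10 q of 5, and the loss was not counted with that minimum (0 of 2 peaks lost, against 30.8% of the list), nor with lists of equal length (0 of 2, against 24.0%).

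That downstream element was also listed in wild-type cells, over 408 and 695 bp at 24 h, against 344 bp at 0 h. It was open in all 7 ATAC-seq lists, with its highest rank, the 85.0th percentile, in the second E6.0 library. At 0 h the Wnt3KO and wild-type lists each had 3 H3K27ac peaks at the loci, at the same elements. None of the 3 was gained or lost in Wnt3KO, where 26.7% and 40% of the lists were. With a −log10 q of at least 5, 1 of 3 was lost, against 39.6%, and with lists of equal length 1 of 3 was gained, against 32.0%. The Wnt3KO and wild-type 0 h lists came from different folders and their stimulation labels differ. Genotype, folder and label therefore cannot be told apart.

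No whole H3K4me3 peak at the loci was gained or lost between 72 h and 0 h in Wnt3KO cells, in lists of 1 folder. Of 8 peaks at 72 h 0 were gained and of 9 peaks at 0 h 0 were lost, against 6.69% and 4.83% of the lists. Where shared peaks had to overlap by 50% of the shorter one or more, 1 of 8 was gained, against 7.02%. These counts are near the background.

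Inside Wnt3, 35.8 kb from the start, 1 element (chr11:103669378-103672206) was open in all 7 ATAC-seq lists. Its ATAC-seq peaks covered 2331 and 2480 bp at E6.0, 1095 and 2103 bp at E7.2 and 728 bp in the posterior part at E7.5, and 803 bp after 48 h of CHIR99021 against 1806 bp at 0 h in EpiSCs. E7.2 and E7.5 libraries lay below both E6.0 libraries in length, and 48 h lay below 0 h. It carried H3K27ac in both wild-type 24 h lists (1125 and 1392 bp) and in no other. H3K4me3 was listed there in 0 of the 4 Wnt3KO lists and in both wild-type lists of no group (1455 and 873 bp). No wild-type list of H3K27me3 or Ring1b was used here, so genotypes were set side by side for H3K4me3 and H3K27ac alone. Inside Wnt3 away from its start, H3K4me3 peaks were in 0 of 4 Wnt3KO and 2 of 2 wild-type lists, and H3K27ac peaks in 0 of 4 and 2 of 3. Inside Wnt3a, H3K4me3 peaks were in 3 of 4 Wnt3KO and 2 of 2 wild-type lists, and H3K27ac peaks in 0 of 4 and 2 of 3. Genotype, time and folder differ together between these lists and cannot be told apart.

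Wnt3a had a single element in its body, 26.2 kb from the start (chr11:59077207-59078354). It was open in all 7 ATAC-seq lists, carried H3K27ac in both wild-type 24 h lists (702 and 530 bp) and in no other, and H3K4me3 in 5 of 6. H3K4me3 covered 596 bp at 0 h, 0 bp at 6 h, 343 bp at 12 h and 673 bp at 72 h in Wnt3KO cells and 845 and 984 bp in the wild-type lists of no group. The 6 h list, of another folder than the 0 and 72 h lists, thus had no H3K4me3 peak at either the body or the start of Wnt3a. The strongest peak ranked at the 57.1st percentile or lower in each assay, and with lists limited to the shortest of their assay 3 of 7 ATAC-seq and 0 of 7 H3K27ac lists had a peak there.

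**Figure D5:**
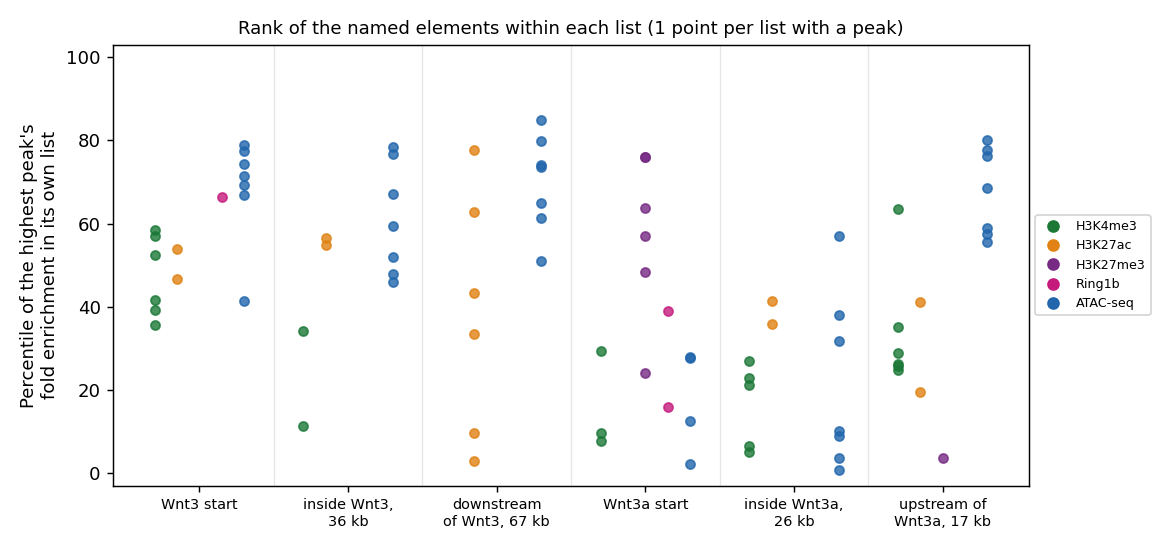
Percentile of the fold enrichment of the strongest peak within its own list, for 6 elements and 5 assays, 1 point per list that holds a peak there. At the Wnt3a start the H3K4me3 points lie between 7.87 and 29.5 and the H3K27me3 points between 24.1 and 75.9, while the ATAC-seq points of the Wnt3 start lie between 41.5 and 78.8.

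Elements outside the genes lay towards their neighbours. In the RefSeq gene order of another assembly, used here for names only, Wnt3 lies between Wnt9b and Nsf, and Wnt3a between Arf1 and Wnt9a, so that each gene has a further Wnt ligand gene upstream. On the Wnt9b side, 23.5 kb upstream of the Wnt3 start, an element (chr11:103609606-103613360) was listed by H3K4me3 in 6 of 6, by ATAC-seq in 7 of 7 and by H3K27me3 in 5 of 6 lists. H3K4me3 and H3K27me3 did not always lie on the same bases of it. At 0 h they shared 0 bp with the first H3K27me3 library and 678 bp with the second. They shared 244 bp at 6 h, 0 bp at 12 h and 333 bp at 72 h. H3K27me3 covered 1829 and 2729 bp at 0 h, 0 bp after 5 h of Wnt3a, and 2122, 1271 and 509 bp after 6, 12 and 72 h of CHIR99021. In bp, the 72 h, 12 h and 5 h libraries lay below both 0 h libraries and the 6 h library between them. This order was not set against the total cover of each list. The H3K27me3 lists covered 2888 and 4678 kb at 0 h, 520 kb after 5 h of Wnt3a, and 1239, 1439 and 1506 kb after 6, 12 and 72 h. The order thus does not separate the element from its lists. ATAC-seq peaks of this element ranked at the 65.7th to 90.8th percentiles at E6.0 and E7.2, and at the 21.6th at E7.5. In EpiSCs they ranked at the 6.53rd after 48 h against the 7.25th at 0 h.

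On the Wnt9a side, 17.4 kb upstream of the Wnt3a start, an element (chr11:59119656-59123186) was listed by H3K4me3 in 6 of 6 and by ATAC-seq in 7 of 7 lists. H3K27ac was on it in both wild-type 24 h lists (1592 and 782 bp) and in no other, and H3K27me3 in the second 0 h library alone (311 bp); neither mark was listed there with lists limited to the shortest of their assay. On the Arf1 side, 62.8 and 81.8 kb downstream, 2 elements (chr11:59039958-59042539 and chr11:59021359-59023043) carried H3K4me3, H3K27ac and open chromatin in all lists of these assays. The nearer one ranked between the 63.2nd and 98.1st percentiles for H3K27ac. None of these elements can be assigned to a gene without an mm9 annotation.

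ATAC-seq at the loci was compared between 48 h and 0 h in wild-type EpiSCs on few peaks. The Wnt3 start was accessible at both times, over 1606 bp at 48 h and 1926 bp at 0 h. Of 17 peaks at 48 h 4 were gained and of 16 peaks at 0 h 3 were lost, against 27.5% and 33.8% of the lists. The gained count is near that share, and with so few peaks neither count sets the loci apart from the lists. The gains included 500 bp on the Wnt3a start (chr11:59104088-59104587, 4.07-fold, 2.22nd percentile) and 426 bp downstream of Wnt3a (chr11:59057245-59057670, 7.53-fold, 37.5th percentile). At Wnt3 they lay 7.93 kb upstream (chr11:103626745-103627396, 5.65-fold) and downstream of the gene (chr11:103703092-103703233, 3.85-fold). The peaks lost were all at Wnt3a, at chr11:59116311-59116465 upstream (8.36-fold), and at chr11:59022537-59022980 (5.01-fold) and chr11:59044066-59044251 (4.38-fold) downstream. The lists came from different folders, so stimulation and folder cannot be told apart.

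In embryos the Wnt3 start was listed as open at each stage, and the Wnt3a start over more bases at E6.0 than later, by peaks of low rank. On the Wnt3 start ATAC-seq covered 1607 and 1899 bp at E6.0, 1019 and 1262 bp at E7.2 and 993 bp in the posterior part at E7.5. On the Wnt3a start element it covered 1195 and 1875 bp at E6.0, 0 and 315 bp at E7.2 and 0 bp at E7.5. The peak of 315 bp lay inside the gene, at positions 59102508 to 59102822. In bp, both E6.0 libraries thus lay above all later embryo libraries at each start. Per Mb of listed ATAC-seq cover the Wnt3 start took 47.7 and 54.1 bp at E6.0. It took 61.3 and 35.9 bp at E7.2 and 43.9 bp at E7.5, so the first E7.2 library lay above both E6.0 libraries. By this measure the Wnt3a start took 35.5 and 53.5 bp at E6.0, 0 and 8.97 bp at E7.2 and 0 bp at E7.5. The strongest ATAC-seq peaks of the Wnt3a start ranked at the 27.8th percentile or lower, and with each list limited to its 33881 strongest peaks, the length of the shortest list, 0 of 7 lists had a peak there, against 7 of 7 at the Wnt3 start. The means were 158 ± 223 bp at E7.2 and 1535 ± 481 bp at E6.0 for Wnt3a (SD, n = 2 each).

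Of the 15 peaks at the loci shared by the E7.2 libraries 0 were absent at E6.0, against 3.61% of the list, and of 19 shared E6.0 peaks 4 were lost at E7.2, against 13.2%. The lost peaks were 477 bp (chr11:59103936-59104412, 5.44-fold) and 187 bp (chr11:59106098-59106284, 4.21-fold) of the Wnt3a start, 206 bp downstream of Wnt3 (chr11:103714956-103715161, 6.37-fold) and 538 bp inside Wnt3 (chr11:103656472-103657009, 4.36-fold). Within a folder, which was compared after the data had been seen, 8 of 20 peaks were lost with the first library of each stage, against 50.4% of the list, and 8 of 25 with the second, against 27.4%. With lists of equal length 1 of 9 was lost, against 10.2%, and 1 of 11 gained, against 7.75%. The E7.2 lists held 33881 and 72433 peaks, so these counts rest on lists of unequal length.

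Between the E7.5 posterior part and E7.2, 0 of 13 peaks were gained and 3 of 15 were lost, against 24.6% and 27.5% of the lists. All 3 lay at Wnt3, at chr11:103676288-103676425 inside the gene (5.04-fold), at chr11:103632176-103632672 upstream of the start (4.44-fold) and at chr11:103670595-103670917 in the element 35.8 kb from the start (3.54-fold), which had another peak at E7.5. The first of these elements was open in all 4 libraries of E6.0 and E7.2 and in none of E7.5 and EpiSCs. With the second E7.2 library alone, which is of another folder, 7 of 20 peaks were lost, against 56.8% of that list. Where shared peaks had to overlap by 50% of the shorter one or more, 5 of 15 were lost, against 28.2%, and 1 of 13 gained, against 25.5%.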

How the data were processed

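The authors' peak lists of 32 of the 57 samples were used (the other 25, of 4C-seq, are not analysed here). Bowtie 1.1.0, Bowtie2 2.1.0, cutadapt 1.8.1, SAMtools 0.1.19 and MACS2 2.1.0 are named, without their roles, per the submitters' processing notes, and for 4 wild-type ChIP-seq samples (both of H3K27ac at 24 h and the pair of H3K4me3) no tools are given in the sources used here, nor is the background library for any list. The build is mm9. The deposited fold enrichment is a ratio of signal to local background made by the peak caller of the authors. The same program gave the deposited −log10 p values (at least 5.00 in each list) and −log10 q values, and the deposited score was not used.

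Peaks (1-based coordinates) counted as shared with an overlap of at least 1 bp. With 2 replicates, a peak of a group was one of the first list that overlapped the second, and it was absent from a group when it overlapped neither. Gained and lost peaks were counted at the loci and, as background, over the whole lists in 11 comparisons, with no test. The regions named are the start element of each gene, elements listed in 3 or more assays, and up to 3 gained and 3 lost peaks of each locus and comparison with the highest fold enrichment. The members and lists were chosen with earlier results of these data known. Counting was tested on simulated data. Python 3.11.15, numpy 2.4.6, pandas 2.3.3 and matplotlib 3.10.9 were used. Tried as alternatives were overlap by 50% or more of the shorter peak, a −log10 q of at least 5, lists of equal length, merging within 1 kb and leaving out a replicate. Stage names in the peak names of embryo lists differ from the labels, which were followed. Promoters of other Wnt ligands were not analysed here, since no mm9 annotation was used.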

Additional observations from a re-analysis of the deposited data

Results flagged for a closer look

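At the element 35.8 kb from the start inside Wnt3, 0 of the 4 Wnt3KO libraries listed an H3K4me3 peak. Of the 2 inputs, also of Wnt3KO cells, 0 listed any peak there. The wild-type pair, put in no group because title and stimulation label disagree, listed 3 H3K4me3 peaks (1 peak of 1455 bp, and 2 peaks of 873 bp in all). It stands out because these libraries enter no comparison; no input of wild-type cells was used here, so the inputs are no control for this genotype. The pair shares a processing folder with the wild-type H3K27ac libraries at 24 h and with no Wnt3KO library, and the labels do not state which part of Wnt3 the Wnt3KO cells lack. Genotype and folder cannot be told apart.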

How the results depend on the processing

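No paired analysis was possible because the results come from no test; embryo libraries that share a number share a folder, and each such pair is given below as values. Of 124 counts of gained or lost peaks over both loci under an alternative, 95 stayed within 1.5 times the reported count and 29 did not. Counts of 0 that stayed at 0 are among the 95, also where no peak was there to be gained or lost. The 95 are thus not a measure of stability alone, and no direction can reverse. Each count is given with the peaks at the loci it is out of and, in brackets, the share over the lists under that alternative; those of H3K27me3, H3K27ac and H3K4me3 under equal lengths, merging, 50% overlap and the q minimum stand beside their results, and were 1 H3K4me3 peak gained at 72 h (50% overlap), 0 H3K27ac peaks lost at 72 h and 1 lost in Wnt3KO against wild type at 0 h (−log10 q of at least 5), 1 gained and 1 lost at 24 h, 0 lost at 72 h and 1 gained in Wnt3KO against wild type (equal lengths), 4 gained at 24 h (merged), and 2 H3K27me3 peaks lost after 5 h (equal lengths), 2 at 72 h and 4 after 5 h (merged). Ring1b had 0 of 0 gained after 5 h with equal lengths (24.5%) and 0 of 1 merged (40.3%). ATAC-seq at E7.5 against E7.2 had 1 of 13 gained (25.5%) and 5 of 15 lost (28.2%) with 50% overlap, and E7.2 against E6.0 had 1 of 11 gained (7.75%) and 1 of 9 lost (10.2%) with equal lengths. Within a folder, compared after seeing the data, E7.2 against E6.0 had 1 of 15 gained (10.3%) and 8 of 20 lost (50.4%) with the first libraries and 8 of 25 lost (27.4%) with the second. Leaving out 1 replicate gave 0 to 1 H3K27me3 peaks gained after 5 h of Wnt3a, 0 to 2 Ring1b peaks lost at 72 h, 1 to 2 gained and 0 to 1 lost after 5 h, 0 to 1 ATAC-seq peaks gained and 4 to 8 lost at E7.2 against E6.0, and 0 to 1 gained and 3 to 7 lost at E7.5 against E7.2. The causes were not tested, beyond the smaller number of peaks that equal lengths, merging and the q minimum leave by construction. The limit to the shortest list of an assay, given beside the elements, was added after seeing the data. Depth is unknown, so absent peaks set no limit.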
